A study of Mus musculus with 12 samples.

Results

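The interferon-stimulated genes described here are 9 genes, namely Ifit1, Ifit2, Ifit3, Rsad2, Oasl2, Isg15, Usp18, Irf7 and Bst2, which were chosen by symbol out of the 55536 genes of a bulk RNA-Seq count table. RNA was measured in megakaryocytes (MKs), the cells that make platelets, sorted from the bone marrow (BM) and the spleen of Pf4-TdTomato mice. The 12 libraries formed 4 groups of 3, which were BM MKs after saline, BM MKs after sepsis, splenic MKs after saline and splenic MKs after sepsis, all taken 5 days after the injection. Sepsis was induced with cecal slurry (CS), a suspension of gut contents that causes a bacterial infection of the peritoneum, and saline was the control. All mice were on the C57BL/6 background and carried a Cre recombinase under the promoter of Pf4, a platelet granule gene, and a red tdTomato reporter, so that cells with present or past Pf4 promoter activity glow red. Each library came from a pool of 300 red cells gated as CD45+, CD41+, CD42b+ and negative for a lineage cocktail. The mice of the study were male and female and 8 to 12 weeks of age. The samples are described as independent replicates, and the paper's captions for this experiment give n = 3 mice, but the labels link no library to an animal. The p-values measure the spread between these libraries, which may be partly technical.

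Interferons are secreted proteins that warn cells of infection. Type I interferons bind the receptor chains IFNAR1 and IFNAR2, the kinases JAK1 and TYK2 then pass the signal to transcription factors, and these bind a short DNA element, the interferon-stimulated response element (ISRE), in front of the target genes. Interferon gamma uses another receptor, and many of its target genes carry gamma-activated sites (GAS). MKs and platelets are known to carry interferon receptors and to express target genes such as IFITM3 in viral infection and in sepsis, and the products of the 9 genes span viral RNA binding, protein tagging, transcription and virus tethering.

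The promoter sequences of the genes are shown first, searched for the letters of the ISRE. The genes were chosen as interferon-stimulated genes, and neither binding nor a response to interferon was measured here. RefSeq promoter windows of GRCm38.p6, which run from 250 bases before to 50 bases after a transcript start, were found for 8 of the 9 genes, and Usp18 had no entry. The ISRE was searched as GAAANNGAAA on both strands, and overlapping matches were counted separately. A match was present in 5 of these 8 genes (62.5%), against 3.99% of the 27025 genes with a window. The matches of the 5 genes are printed 5′ to 3′ on the strand of the gene, with every base of a match in capitals.
Ifit1, chr19:34640770-34640828, plus strand: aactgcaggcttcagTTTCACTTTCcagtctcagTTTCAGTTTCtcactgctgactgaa
Ifit3, chr19:34583358-34583431, plus strand: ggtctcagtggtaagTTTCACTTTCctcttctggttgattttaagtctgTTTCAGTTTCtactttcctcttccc
Isg15, chr4:156200860-156200911, minus strand: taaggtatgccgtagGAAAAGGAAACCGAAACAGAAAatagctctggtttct
Rsad2, chr12:26456548-26456587, minus strand: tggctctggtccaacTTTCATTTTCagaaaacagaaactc
Bst2, chr8:71537572-71537617, minus strand: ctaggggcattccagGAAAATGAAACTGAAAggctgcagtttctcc

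Isg15 held 3 overlapping matches, Ifit1, Ifit3 and Bst2 held 2 each, and Rsad2 held 1. The first matched base lay 78 bases before the start in Isg15, 104 in Ifit1, 120 in Rsad2, 130 in Bst2 and 156 in Ifit3. In Ifit1, Ifit3 and Rsad2 the motif was read on the opposite strand, and in Isg15 and Bst2 on the strand of the gene. These letters were not found in the windows of Ifit2, Irf7 and Oasl2, which says nothing about elements that differ by a base or lie outside the window. The GAS, searched as TTCNNNGAA, matched in 2 of the 8 genes (25.0%), Ifit2 and Bst2, against 9.55% of all genes with a window.

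Libraries held between 7756762 and 27386184 counts, with 14989 to 21602 genes above 3 counts. Values are given as CPM, the count of a gene relative to the TMM-scaled total of its library, and 3 counts, the limit that a count of 0 allows, corresponded to 0.105 to 0.405 CPM. The biological coefficient of variation was 143%, so that libraries of 1 group differed widely at most genes. The MK label was checked with 11 MK markers, which had a summed level of 11729 to 47550 CPM in BM and 1218 to 3520 CPM in spleen. Pf4 lay between 9606 and 30581 CPM in BM and between 476 and 2439 CPM in spleen, and no library lacked it. Markers of cells that the gate should have removed were also present. The summed level of 9 B cell markers was 60.3 to 292 CPM in BM and 2918 to 10059 CPM in spleen, and that of 7 plasma cell markers was 1481 to 4691 CPM in BM and 7465 to 80829 CPM in spleen. In every spleen library both sums were above the MK marker sum of that library, and in every BM library both were below it. The term splenic MKs therefore names the sorted group below, not a pure cell type. The neutrophil list summed to 93.8 to 272 CPM in BM after saline and to 2248 to 16711 CPM in BM after sepsis. In BM sepsis replicate 3 the neutrophil sum of 16711 CPM was above the MK marker sum of 11729 CPM. The term BM MKs therefore does not name a pure cell type either. In spleen the neutrophil list reached 21171 CPM in 1 library after saline (replicate 1) and 10424 CPM in 1 after sepsis (replicate 1), against 70.5 to 455 CPM in the other 4 spleen libraries. In such bulk samples, fewer cells of a type and less RNA per cell cannot be told apart.

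The 9 genes were low and patchy in these libraries. Of the 108 values, 81 were above 3 counts and 21 were at 0, and only Bst2 was above 3 counts in all 12 libraries. Values above 3 counts made up 22 of 27 in BM after saline, 22 in BM after sepsis, 21 in spleen after saline and 16 in spleen after sepsis. The highest values of the 9 genes were spread over 6 libraries. On a scale that corrects for transcript length, Bst2 averaged 37.3 CPM per kilobase over all libraries, and the other 8 genes averaged between 0.820 (Rsad2) and 3.11 (Ifit1). All 9 genes passed the expression filter, and outside the Ifit cluster each lies on a chromosome of its own.

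**Figure D1:**
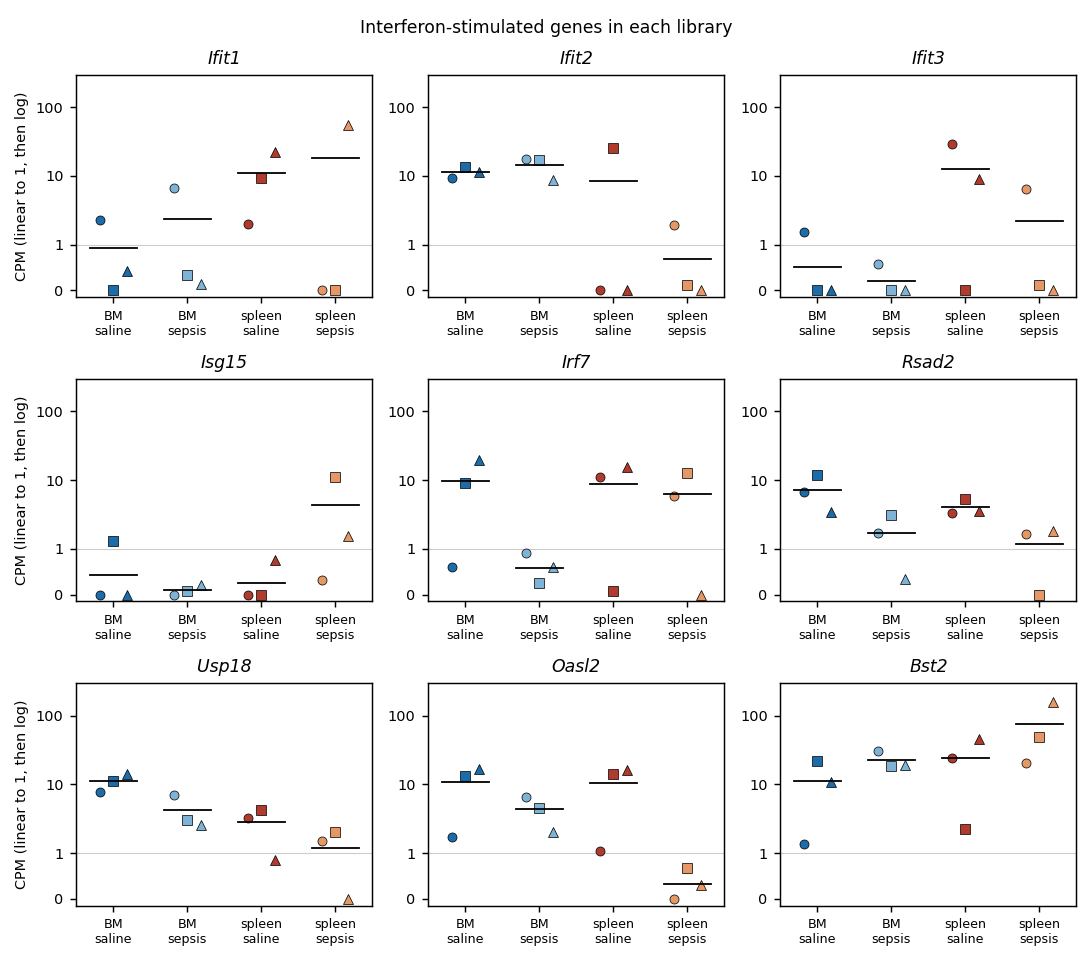
CPM of each of the 9 genes in every library, on an axis that is linear up to 1 and logarithmic above. Circles, squares and triangles are replicates 1, 2 and 3, horizontal bars are group means (n = 3), and in Ifit1, Ifit2, Ifit3, Isg15 and Irf7 libraries under 1 CPM stand beside libraries above 5 CPM of the same group.

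The Ifit genes (ENSMUSG00000034459, ENSMUSG00000045932 and ENSMUSG00000074896) encode cytoplasmic proteins with tetratricopeptide repeats that bind viral RNA or the translation machinery. They are neighbors on chromosome 19 of GRCm38, with Ifit2 at 34550694 to 34576419, Ifit3 at 34583531 to 34588731 and Ifit1 at 34640871 to 34650009, all on the plus strand. The 3 neighbors were highest in 3 different libraries.

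Ifit1 had 2.32, 0 and 0.431 CPM in replicates 1, 2 and 3 of BM after saline and 6.59, 0.340 and 0.140 CPM in BM after sepsis. In spleen, Ifit1 had 2.03, 9.24 and 22.3 CPM after saline and 0, 0 and 55.7 CPM after sepsis. The groups overlapped in both tissues, and the highest value stood beside 2 libraries at 0 in the same group. Averaged over treatments, the log2 fold change of Ifit1 in BM over spleen was -3.28 ± 1.66 (SE; edgeR quasi-likelihood test, Benjamini-Hochberg adjusted p = 0.286). Without spleen sepsis replicate 3, which held 574 of the counts of Ifit1, this value was 2.20, so that 1 library set its sign.

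Ifit2 was the most even of the 3 genes in BM, where it had 9.19, 13.7 and 11.4 CPM after saline and 17.5, 17.1 and 8.67 CPM after sepsis. In spleen it had 0, 25.6 and 0 CPM after saline and 1.95, 0.112 and 0 CPM after sepsis. After sepsis the 3 BM libraries were all above the 3 spleen libraries, whereas after saline 1 spleen library exceeded every BM library. BM exceeded spleen in Ifit2 by a log2 fold change of 4.33 ± 2.17 after sepsis (edgeR adjusted p = 0.391) and of 0.42 ± 1.89 after saline (edgeR adjusted p = 0.969). The average over treatments was 2.38 ± 1.40 (edgeR adjusted p = 0.365). That average was 7.27 with an adjusted p of 0.0155 in edgeR when spleen saline replicate 2 was left out, and 5.41 with an adjusted p of 0.0155 in limma-voom with quality weights, in a range of adjusted p of 0.0155 to 0.428 over 18 alternatives.

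Ifit3 was at or near 0 in most libraries. It had 1.55, 0 and 0 CPM in BM after saline, 0.587, 0 and 0 CPM in BM after sepsis, 29.2, 0 and 8.90 CPM in spleen after saline and 6.43, 0.112 and 0 CPM in spleen after sepsis. Replicate 1 was the highest library in each of the 4 groups, although equal replicate numbers are not said to share a mouse. The 2 spleen libraries numbered 1, with 29.2 and 6.43 CPM of Ifit3, were also the 2 with neutrophil marker sums of 21171 and 10424 CPM. They also had the highest sums of their groups for T cell markers (1720 and 483 CPM) and natural killer cell markers (1884 and 232 CPM). In BM after sepsis, replicates 2 and 3 had neutrophil sums of 11158 and 16711 CPM and Ifit3 at 0. The part of neutrophil, T cell or natural killer cell RNA in the Ifit3 values was not tested. Averaged over treatments, Ifit3 had a log2 fold change in BM over spleen of -4.01 ± 2.08 (edgeR adjusted p = 0.299). How reads shared with the near copy Ifit3b, or between Ifit1 and Ifit1bl1, were counted is not given in the sources used here, so that the split between the copies is uncertain.

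Rsad2 (viperin, ENSMUSG00000020641, chr12:26442746-26456452, minus strand) encodes a radical SAM enzyme that makes a chain-terminating nucleotide against viral polymerases. It had 6.70, 11.7 and 3.45 CPM in BM after saline and 1.70, 3.06 and 0.351 CPM in BM after sepsis. Splenic MKs had 3.38, 5.28 and 3.54 CPM after saline and 1.64, 0 and 1.84 CPM after sepsis. All 6 libraries after sepsis, between 0 and 3.06 CPM, lay below all 6 libraries after saline, between 3.38 and 11.7 CPM. Rsad2 was the only one of the 9 genes with this pattern, which 0.148% of the 20263 genes tested showed in the same direction and 0.158% in the other direction. The gap was narrow, it was also present with RLE scaling factors, and with library size alone the groups overlapped. Sepsis over saline averaged over tissues gave a log2 fold change of -1.94 ± 1.46 (edgeR adjusted p = 0.639), with -2.10 ± 2.07 in BM (adjusted p = 1.0) and -1.79 ± 2.05 in spleen (adjusted p = 0.824). BM and spleen differed by 0.69 ± 1.41 on the log2 scale (edgeR adjusted p = 0.832).

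Oasl2 (ENSMUSG00000029561, chr5:114896936-114912234, plus strand) encodes a protein of the 2′-5′ oligoadenylate synthetase family with ubiquitin-like domains. In BM it had 1.72, 13.3 and 17.0 CPM after saline and 6.59, 4.59 and 2.0 CPM after sepsis. Its splenic levels were 1.08, 14.2 and 16.1 CPM after saline and 0, 0.672 and 0.291 CPM after sepsis. The 3 splenic libraries after sepsis were therefore below every other library. For sepsis over saline, Oasl2 had a log2 fold change of -5.02 ± 1.98 in spleen (edgeR adjusted p = 0.382, unadjusted 0.0202) and -1.28 ± 1.69 in BM (edgeR adjusted p = 1.0). After sepsis, BM exceeded spleen by 3.77 ± 1.87 on the log2 scale (edgeR adjusted p = 0.391), and after saline the difference was 0.03 ± 1.66 (edgeR adjusted p = 1.0). The test of the difference itself, the tissue by sepsis interaction, gave 3.74 ± 2.44 (edgeR adjusted p = 0.692). DESeq2 called the fall in spleen, with -5.25 and an adjusted p of 0.0128, in a range of adjusted p of 0.0128 to 0.659 over 18 alternatives. Oasl1, of the same family, was highest, at 7.34 CPM, in spleen saline replicate 2. Oasl2 had 14.2 CPM there, below its 17.0 CPM in BM saline replicate 3 and 16.1 CPM in spleen saline replicate 3. How any reads shared between the 2 genes were counted is not given in the sources used here.

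Isg15 (ENSMUSG00000035692, chr4:156199424-156200818, minus strand) encodes a ubiquitin-like protein that is attached to other proteins, and Usp18 (ENSMUSG00000030107, chr6:121245906-121270917, plus strand) encodes the protease that removes it and also dampens IFNAR signaling. Isg15 had 0, 1.29 and 0 CPM in BM after saline and 0, 0.0850 and 0.211 CPM in BM after sepsis. In spleen it had 0, 0 and 0.751 CPM after saline and 0.308, 11.0 and 1.55 CPM after sepsis. Splenic MKs after sepsis were thus the only group with Isg15 above 3 counts in all 3 libraries, and they lay above the 3 BM libraries after sepsis, a separation that was lost with library size alone. The log2 fold change of Isg15 was -5.28 ± 3.23 for BM over spleen after sepsis (edgeR adjusted p = 0.460) and 4.04 ± 3.07 for sepsis over saline in spleen (edgeR adjusted p = 0.635). The largest count of Isg15 was 98, so that these values rest on few reads.

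Usp18 was detected in 11 of 12 libraries. It had 7.82, 11.3 and 14.3 CPM in BM after saline and 7.11, 3.06 and 2.56 CPM in BM after sepsis. The splenic libraries had 3.24, 4.29 and 0.858 CPM after saline and 1.49, 2.02 and 0 CPM after sepsis. The means fell in the order BM after saline, 11.2 ± 3.25 CPM (SD, n = 3), BM after sepsis, 4.24 ± 2.49 CPM, spleen after saline, 2.80 ± 1.76 CPM, and spleen after sepsis, 1.17 ± 1.05 CPM. BM after saline did not overlap with BM after sepsis or with spleen after saline, BM after sepsis did not overlap with spleen after sepsis, and the 2 middle groups overlapped. In BM over spleen, the log2 fold change of Usp18 was 1.99 ± 1.84 after saline (edgeR adjusted p = 0.735) and 1.85 ± 1.83 after sepsis (edgeR adjusted p = 0.729). For sepsis over saline it was -1.39 ± 1.81 in BM (edgeR adjusted p = 1.0) and -1.25 ± 1.81 in spleen (edgeR adjusted p = 0.883). Of the exon bases of Usp18, 4.44% overlap with the antisense transcript Gm44148, and the strand setting of the counting is not given in the sources used here.

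Irf7 (ENSMUSG00000025498, chr7:141262706-141266481, minus strand) encodes the transcription factor that amplifies the production of type I interferons. In BM it had 0.601, 9.15 and 19.5 CPM after saline and 0.913, 0.255 and 0.596 CPM after sepsis. In spleen it had 10.9, 0.0825 and 15.8 CPM after saline and 5.81, 12.8 and 0 CPM after sepsis. Irf7 was low in all 3 BM libraries after sepsis, and each of the other groups had 1 library as low and 2 libraries above 5 CPM. The log2 fold change after sepsis was -4.02 ± 2.14 in BM (edgeR adjusted p = 1.0, unadjusted 0.0756) and -0.53 ± 1.90 in spleen (edgeR adjusted p = 0.974), and their difference was -3.50 ± 2.75 (edgeR adjusted p = 0.759). Of its exon bases, 1.19% overlap with Phrf1 on the opposite strand.

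Bst2 (tetherin, ENSMUSG00000046718, chr8:71534255-71537456, minus strand) encodes a membrane protein that tethers budding virus and is a known surface antigen of plasmacytoid dendritic cells and plasma cells in mice. It had 1.37, 21.7 and 10.7 CPM in BM after saline and 31.0, 18.4 and 19.3 CPM in BM after sepsis. In spleen it had 24.5, 2.23 and 46.5 CPM after saline and 20.4, 48.7 and 159 CPM after sepsis. The group means rose in the order BM after saline, 11.2 ± 10.2 CPM (SD, n = 3), BM after sepsis, 22.9 ± 7.02 CPM, spleen after saline, 24.4 ± 22.1 CPM, and spleen after sepsis, 76.1 ± 73.3 CPM, and every neighboring pair of groups overlapped. The log2 fold change of Bst2 was -1.42 ± 0.74 for BM over spleen averaged over treatments (edgeR adjusted p = 0.300) and 1.33 ± 0.74 for sepsis over saline averaged over tissues (edgeR adjusted p = 0.523), the smallest SE of the 9 genes in both comparisons.

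The library with the highest Bst2 and Ifit1, spleen sepsis replicate 3, also had the highest level of Sdc1 (CD138), a plasma cell surface protein, with 119 CPM against 0 to 14.3 CPM in the other 11 libraries. Its level of the plasma cell gene Jchain was the lowest of the 6 spleen libraries, with 6552 CPM against 29609 to 80009 CPM. Of the 10 markers of plasmacytoid dendritic cells, 7 were tested, 6 had a negative and 1 a positive log2 fold change in BM over spleen averaged over treatments, and 3 were called lower in BM. Their summed level was 154 to 238 CPM in BM after saline, 111 to 197 CPM in BM after sepsis, 2690 to 5311 CPM in spleen after saline and 916 to 6551 CPM in spleen after sepsis. Most of that sum was Ly6d, which B cells also express, at 406 to 6256 CPM in spleen, whereas the defining marker Siglech was at 0 in 10 of 12 libraries, with 0.0859 CPM in BM saline replicate 1 and 5.26 CPM in spleen saline replicate 3. Whether plasma cell or plasmacytoid dendritic cell RNA takes part in the Bst2 values was not tested.

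In the comparison of tissues, edgeR called 0 of the 9 genes after saline, where it called 1.25% of the 20263 genes tested, and 0 after sepsis, where it called 1.78% of all genes. Averaged over treatments, it called 0 of the 9 genes and 4.75% of all genes. At an unadjusted p under 0.05 the count was 0 of 9 in each of these 3 comparisons, against 2534, 2618 and 3907 of all genes. DESeq2 also called 0 of the 9, whereas limma-voom called Ifit2 in the average. The sign of the average log2 fold change was split, with Ifit2, Usp18, Oasl2 and Rsad2 positive (higher in BM) and Ifit3, Ifit1, Isg15, Irf7 and Bst2 negative. The median log2 fold change of the 9 genes was 0.13 after saline, -1.73 after sepsis and -1.42 in the average, beside medians of -0.28, -0.18 and -0.13 over all genes tested. With library size alone in place of TMM, the median over all genes in the average was 0.38 and that of the 9 genes was -0.99, and the share of higher calls among all calls was 72.0% instead of 43.6%.

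Complete separation of the libraries was also counted. After saline, the 3 BM libraries were all above the 3 spleen libraries for 1 of the 9 genes, Usp18, against 11.3% of all genes tested, and all below for 0 of the 9, against 7.0% of all genes. After sepsis they were all above for 3 of the 9, Ifit2, Usp18 and Oasl2, against 11.0% of all genes, and all below for 1, Isg15, against 7.02%. Over both treatments, 0 of the 9 genes had all 6 BM libraries above all 6 spleen libraries, against 2.56% of all genes, and 0 had them all below, against 1.87%. The counts after saline were near the background. The 3 of 9 after sepsis were above it, but they are few genes, and edgeR called none of them (adjusted p = 0.391 for Ifit2 and Oasl2 and 0.729 for Usp18). For Isg15, the nearest libraries were BM sepsis replicate 3 and spleen sepsis replicate 1, with 6 counts each.

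In the comparison of treatments, edgeR called 0 of the 9 genes in BM, where it called 0.0% of all genes, and 0 in spleen, where it called 0.158% of all genes. Averaged over tissues it called 0 of the 9 genes and 0.0691% of all genes, and for the tissue by sepsis interaction it called 0 of the 9 and 0.0% of all genes. Over all genes, the unadjusted p was under 0.05 for 717 genes in BM, 2649 in spleen, 2072 in the average and 1556 in the interaction. In the same order, DESeq2 called 220, 931, 666 and 470 genes, and limma-voom 0, 0, 1 and 0. Of the 9 genes, 1 had an unadjusted p under 0.05 in spleen and 1 in the average, Oasl2 both times, and 0 in BM and 0 in the interaction. DESeq2 called Oasl2 in spleen and in the average, where its log2 fold change was -3.15 ± 1.28 in edgeR (adjusted p = 0.423). Averaged over tissues, 6 of the 9 genes had a negative log2 fold change after sepsis, and Ifit1, Isg15 and Bst2 had a positive one. The median of the 9 genes was -1.37 in BM, -1.25 in spleen and -1.62 in the average, beside medians over all genes of -0.08, -0.08 and -0.07.

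Among the 9 genes, separation by treatment was found in the downward direction only. In BM, 2 of the 9 genes, Rsad2 and Usp18, had all 3 libraries after sepsis below all 3 after saline, against 4.16% of all genes tested, and 0 had them all above, against 4.79%. In spleen, Rsad2 and Oasl2 were all below, against 4.51% of all genes, and 0 of the 9 were all above, against 4.95%. With library size alone, the separation of Rsad2 in BM was lost. Other cell markers also moved with treatment, since all 10 neutrophil markers had a positive log2 fold change in BM, with 0 of 10 called by edgeR. All 7 basophil markers had a negative log2 fold change in both tissues, with 0 called in BM and 2 in spleen by edgeR. The basophil list summed to 4902 to 28795 CPM in BM after saline, where replicate 2 was above its own MK marker sum of 26059 CPM, and to 2737 to 6614 CPM in BM after sepsis. In spleen it summed to 2707 to 4522 CPM after saline and to 47.6 to 695 CPM after sepsis. In spleen saline replicates 1 and 2 it was also above the MK marker sums of 1315 and 1344 CPM. Of 10 tested monocyte and macrophage markers, 9 had a positive log2 fold change in BM and 9 a negative one in spleen. Their list summed to 1621 to 2774 CPM in spleen after saline and to 327 to 956 CPM after sepsis. All 9 B cell markers were negative in BM, and 7 of 9 were positive in spleen. Of 6 tested natural killer cell markers, 5 were negative in each tissue. EdgeR called 0 of these markers for sepsis in either tissue. The part of RNA from neutrophils, basophils and these other cells in the values of the 9 genes was not tested. The 2 tissues were compared with their own saline controls, and no member of the list differed between the tissues in its response by the test of the interaction, in which adjusted p ranged from 0.692 to 1.0 with SEs of 1.46 to 4.12 on the log2 scale. Those SEs are so wide that a difference of several log2 units between the tissues could not be detected.

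**Figure D2:**
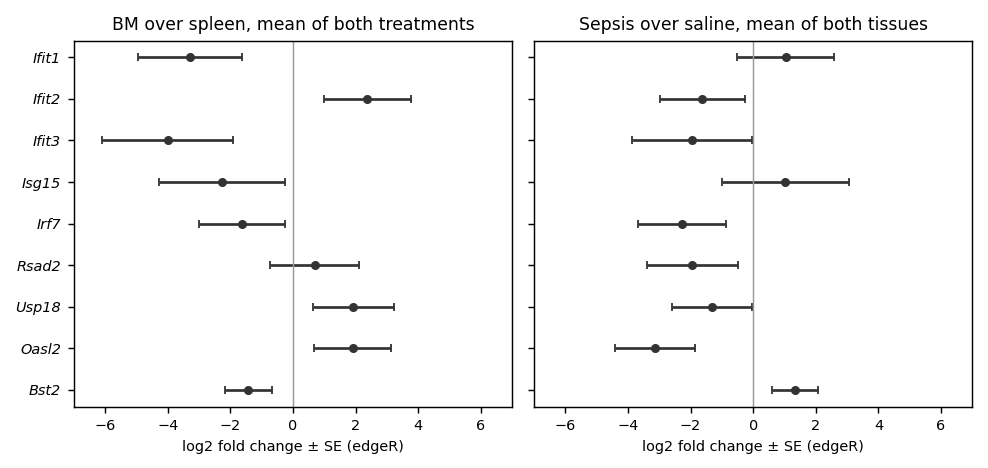
Log2 fold change and SE of the 9 genes from edgeR, for BM over spleen averaged over treatments and for sepsis over saline averaged over tissues. In the tissue comparison 4 genes lie above 0 and 5 below, and in the sepsis comparison 3 lie above and 6 below, none with an adjusted p under 0.05.

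The 9 genes did not move as 1 set from library to library. Over the 36 pairs of genes, Pearson's r of log2 CPM across the 12 libraries had a median of -0.02 and ranged from -0.65 to 0.71, the latter for Ifit2 and Usp18, and 3 pairs were above 0.5. These correlations are a description, since the libraries share groups and depth. The mean standardized level of the 9 genes ranged from -0.379 in BM sepsis replicate 3 to 0.463 in spleen saline replicate 3. The genes whose levels followed this mean most closely over the 12 libraries were Olfr187 (r = 0.879), Gm37877 (r = 0.871), Gm37985 (r = 0.869), AC132235.2 (r = 0.837), Gm26555 (r = 0.831), A230004M16Rik (r = 0.816), Mroh4 (r = 0.815) and Rnasek (r = 0.813). They were picked as the 8 highest r among all tested genes outside the 9, over only 12 libraries and without a test. Values this high can arise from the picking alone. None of these 8 genes is in the lists of interferon genes used here.

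The wider interferon pathway was examined with 84 other genes in 8 lists, of which 72 passed the expression filter. In the tissue average, edgeR called 11 of the 72, all of them lower in BM, against 4.75% of all genes tested. DESeq2, which was run on all genes with a count and without the expression filter, called 20 lower and 1 higher in BM, beside 2178 calls over all genes. Limma-voom called 14 lower and 0 higher, beside 1517 calls among the 20263 genes tested. Beyond the calls of edgeR, the lower genes in DESeq2 were Ifng, Stat2, Ddx58, Mx1, Trim25, Samd9l, Gbp2, Gbp5 and Ciita, the higher gene was Ube2l6, and limma-voom added Samd9l, Nmi and Ciita. The median log2 fold change of the 72 genes was -1.47, beside -0.13 over all genes tested, and 61 of the 72 were negative. With library size alone 54 of 72 were negative, where the median over all genes was 0.38. The same splenic libraries were higher in markers of B cells, plasma cells and T cells, with 9 of 9 B cell markers, 5 of 7 plasma cell markers and 3 of 7 T cell markers called lower in BM, and the T cell list summing to 7.57 to 89.8 CPM in BM and 129 to 1720 CPM in spleen. The part of those cells in the calls was not tested.

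Interferon ligands were almost absent, and 1 of 9, Ifng, passed the filter. Ifng, the gene of interferon gamma, was at 0 in all 6 BM libraries and had 12.6, 3.05 and 0 CPM in spleen after saline and 10.4, 0 and 0 CPM in spleen after sepsis. Of 6 receptor genes, 5 were tested and edgeR called 0, with log2 fold changes in the tissue average of -1.42 for Ifngr2 to -0.46 for Ifnar2. Ifnar1 ranged from 5.06 to 15.6 CPM in BM and from 13.4 to 50.3 CPM in spleen. RNA of this chain of the type I interferon receptor was thus detected in every library, whereas protein was not measured in them. All 10 genes of the JAK, STAT and IRF list were tested, and their log2 fold changes lay between -3.19 for Irf5 and 0.54 for Jak2.

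Irf5, a transcription factor downstream of Toll-like receptors, was the only call of edgeR in that list, and DESeq2 also called Stat2 (-1.79, adjusted p = 0.0349). It had 2.15, 2.88 and 9.26 CPM in BM after saline, 0.848, 5.27 and 14.7 CPM in BM after sepsis, 20.4, 17.5 and 90.7 CPM in spleen after saline and 28.0, 39.7 and 127 CPM in spleen after sepsis. Every spleen library was above every BM library, and the log2 fold change was -3.19 ± 0.78 (edgeR adjusted p = 0.0193). Leaving out spleen saline replicate 3 or spleen sepsis replicate 3 ended the call, with adjusted p of 0.0522 and 0.0572.

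Of 7 sensors of nucleic acids, edgeR called 2, and DESeq2 also called Ddx58 (-1.77, adjusted p = 0.0180). Zbp1, a sensor of Z-form nucleic acids that can trigger cell death, had 0.0850 to 5.06 CPM in the 6 BM libraries (median of the groups 0.596 after saline and 0.261 after sepsis) and 21.5 to 137 CPM in the 6 spleen libraries. Its log2 fold change of -6.68 ± 0.83 (edgeR adjusted p = 4.9e-05) was the largest among the called pathway genes. Tmem173 (STING), the adaptor of DNA sensing by cGAS, had 0.108 to 0.398 CPM in BM after saline, 0.196, 5.19 and 17.4 CPM in BM after sepsis, 153, 1.82 and 53.1 CPM in spleen after saline and 41.1, 67.6 and 7.57 CPM in spleen after sepsis. The tissues overlapped in Tmem173, and its log2 fold change was -5.11 ± 1.07 (edgeR adjusted p = 0.0064).

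Among 33 tested of 34 other type I targets, edgeR called 6, and 29 had a negative log2 fold change. Ifi27l2a, a small mitochondrial protein gene, was the most abundant, with 17.9 to 193 CPM in BM and 255 to 2934 CPM in spleen and a log2 fold change of -4.65 ± 0.60 (edgeR adjusted p = 6.6e-05). Ifi209, of the DNA-binding PYHIN family, had 2.74 to 10.6 CPM in BM and 18.6 to 364 CPM in spleen (-5.00 ± 0.67, edgeR adjusted p = 0.000107). The nuclear body gene Sp100, at 12.6 to 57.5 CPM in BM and 173 to 495 CPM in spleen, and the helicase gene Helz2, at 3.72 to 10.4 CPM in BM and 33.7 to 89.7 CPM in spleen, did not overlap between tissues either, with log2 fold changes of -2.84 ± 0.42 (edgeR adjusted p = 0.000298) and -2.95 ± 0.59 (edgeR adjusted p = 0.0046). The calls of Ifi203, another PYHIN gene (-1.93 ± 0.45, edgeR adjusted p = 0.0151), and Trim30a, a tripartite motif gene (-1.73 ± 0.44, edgeR adjusted p = 0.0245), were less stable. Ifi203 lost its call without BM saline replicate 2 (adjusted p = 0.0757) and with library size alone (adjusted p = 0.0807). Trim30a lost it in 9 of 18 alternatives, namely with library size alone (adjusted p = 0.107), without an expression filter (0.0530) and without BM saline replicate 2 (0.146) or 3 (0.106), BM sepsis replicate 1 (0.0836), 2 (0.0772) or 3 (0.0709), spleen saline replicate 3 (0.0546) or spleen sepsis replicate 2 (0.0587).

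**Figure D3:**
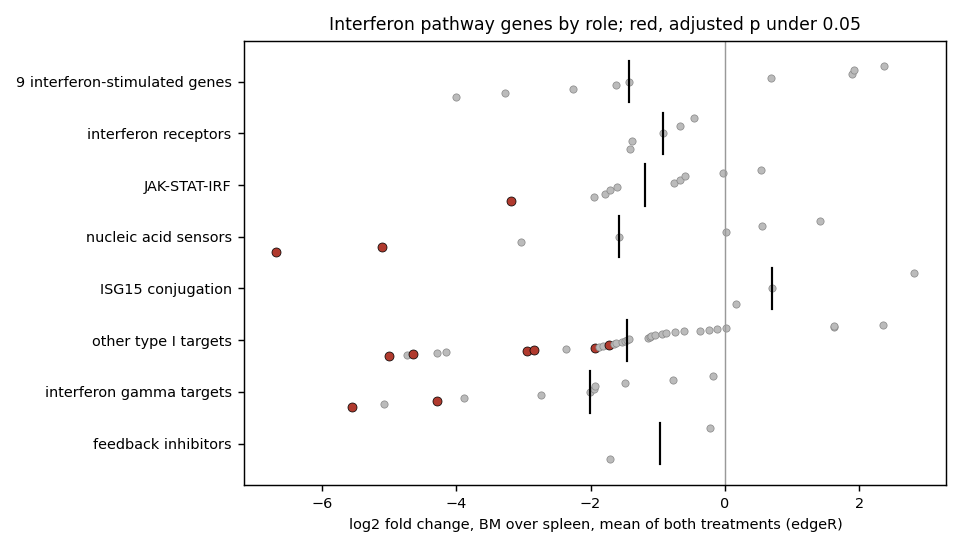
Log2 fold change in BM over spleen averaged over treatments for the tested genes of the interferon pathway, by role, with 1 point per gene, red for an adjusted p under 0.05 in edgeR, and a bar at each list's median. The ligands are left out because Ifng was at 0 in BM, and the 11 called genes all lie between -6.68 and -1.73.

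Interferon gamma targets held 2 calls of edgeR among 11 tested of 13, the guanylate-binding protein genes Gbp4 and Gbp3, whose products attack vacuoles that hold microbes. Gbp4 had 0 to 3.77 CPM in BM and 6.60 to 70.4 CPM in spleen (-5.55 ± 1.13, edgeR adjusted p = 0.0051), and Gbp3 had 1.19 to 7.26 CPM in BM and 3.92 to 144 CPM in spleen (-4.29 ± 0.75, edgeR adjusted p = 0.0014). All 11 tested genes of the list had a negative log2 fold change, or 10 of 11 with library size alone. The 3 genes that attach ISG15 to proteins, Uba7, Ube2l6 and Herc6, had positive log2 fold changes of 0.17 to 2.82, and none was called by edgeR, the lowest adjusted p being 0.0615 for Ube2l6, which DESeq2 called (adjusted p = 0.0415). The 2 tested feedback inhibitors, Socs1 and Socs3, were not called by edgeR. The call of each of Zbp1, Tmem173, Ifi27l2a, Ifi209, Sp100, Helz2, Gbp3 and Gbp4 in the tissue average was kept in all 18 alternatives.

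Within each treatment the pathway calls of edgeR were fewer. After saline 5 of 72 were lower in BM, Tmem173, Zbp1, Ifi27l2a, Ifi209 and Gbp3, against 1.25% of all genes. After sepsis 5 of 72 were lower in BM, Zbp1, Ifi27l2a, Sp100, Ifi209 and Gbp4, against 1.78% of all genes. Without BM saline replicate 1 the calls of Zbp1 (adjusted p = 0.0583) and Ifi27l2a (adjusted p = 0.0722) after saline were lost. That of Ifi27l2a was also lost without spleen saline replicate 3 (adjusted p = 0.0629), and that of Gbp3 without BM saline replicate 2, BM saline replicate 3 or spleen saline replicate 3 (adjusted p = 0.0734, 0.0696 and 0.0784). After sepsis the call of Gbp4 was lost without BM sepsis replicate 2 or 3 (adjusted p = 0.0757 and 0.0647), and its log2 fold change moved from -7.48 to -11.65 without BM sepsis replicate 1. Limma-voom did not make the calls of Tmem173, Ifi27l2a, Ifi209 and Gbp3 after saline, a fit of the 6 libraries alone did not make those of Tmem173, Zbp1 and Gbp3 after saline and of Gbp4 after sepsis, and library size alone did not make that of Gbp4. DESeq2 called 9 lower and 0 higher after saline, with Ifng, Ifngr1, Sp100 and Helz2 added, and 11 lower and 1 higher after sepsis, with Ifng, Ifi203, Helz2, Gbp2, Gbp3 and Gbp5 added as lower and Ube2l6 as higher. Limma-voom called 1 lower after saline and 9 lower after sepsis, with Trim30a, Ifi203, Helz2 and Gbp3 added after sepsis, and library size alone added Ube2l6 as higher after sepsis and in the average. Over all genes, DESeq2 made 1053 calls after saline and 1248 after sepsis, and limma-voom made 185 and 724.

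**Figure D4:**
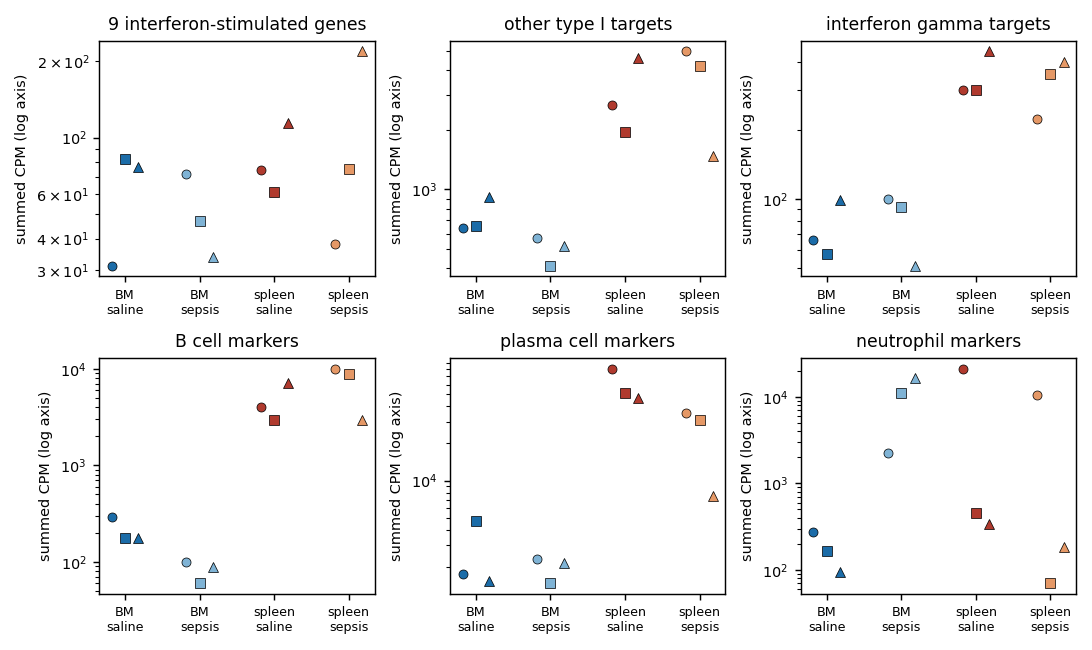
Summed CPM per library, on logarithmic axes, of the 9 genes, the other type I targets, the interferon gamma targets and the markers of B cells, plasma cells and neutrophils, with circles, squares and triangles for replicates 1, 2 and 3. The 9 genes overlap between the tissues, from 31.3 to 82.2 CPM in BM and from 38.0 to 218 CPM in spleen, while the other type I targets lie between 413 and 921 CPM in BM and between 1484 and 4963 CPM in spleen.

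Sepsis was followed by 0 calls of edgeR among the 72 other pathway genes in BM, spleen and their average, and by 0 in the interaction. The unadjusted p was under 0.05 for 4 of 72 in BM, 8 in spleen, 4 in the average and 5 in the interaction. Over all 20263 genes tested it was so for 717, 2649, 2072 and 1556 genes, in the same order. Limma-voom called 0 of the 72 in each of these 4 comparisons. DESeq2 called 0 in BM, 4 in spleen (Ube2l6, Jak2, Ifngr1 and Ifi44), 2 in the average (Ube2l6 and Jak2) and 0 in the interaction, beside 220, 931, 666 and 470 calls over all genes. The smallest p in spleen belonged to Ube2l6, the enzyme that carries ISG15 to its substrates, which had 38.2, 1.32 and 47.8 CPM after saline and 0.308, 0.896 and 0.582 CPM after sepsis. These groups did not overlap, and the log2 fold change was -5.61 ± 1.36 (edgeR adjusted p = 0.145). In BM, Ube2l6 had 16.6, 20.4 and 121 CPM after saline and 23.6, 4.08 and 21.7 CPM after sepsis, with a log2 fold change of -1.68 ± 1.13 (edgeR adjusted p = 1.0). The interaction for Ube2l6 was 3.93 ± 1.63 (edgeR adjusted p = 0.605).

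The ISRE and GAS were counted in the wider lists with the same windows. The ISRE matched in 10 of 26 other type I targets with a window (38.5%) and in 8 of 9 interferon gamma targets (88.9%), against 3.99% of all genes with a window. Of the 11 pathway genes called, 7 had a window, and 3 of them held the motif (42.9%), Gbp3, Ifi203 and Trim30a. The GAS matched in 5 of the 26 other type I targets (19.2%) and in 4 of the 9 interferon gamma targets (44.4%), against 9.55% of all genes with a window. It matched in 0 of the 7 called genes with a window, too few genes to set against that share.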

How the data were processed

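The authors deposited whole-number counts of reads per gene, not normalized, for 12 libraries, made with the SMART-Seq HT and Nextera XT kits. The submitters' processing notes name STAR 2.7.2b, R 3.6.1, DESeq2 1.26 and GRCm38, with no role given. The sources used here do not give counting options, annotation or strand setting. Symbols, positions and exon lengths were taken from GENCODE M21.

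Tests were run with edgeR 4.0.16 under R 4.3.3 (filterByExpr with a minimum count of 10, TMM factors, 1 mean per group, 8 residual and 11.1 prior degrees of freedom), by quasi-likelihood F tests with Benjamini-Hochberg adjustment over 20263 genes and a threshold of 0.05. The SE is the log2 fold change divided by the square root of F. Log2 CPM used a prior count of 2. Alternatives were RLE factors, library size alone, no expression filter, DESeq2 1.42.0, limma 3.58.1 (voom with quality weights), the replicate number as a block, each comparison's own 6 libraries, and each library left out. The procedure was tested on simulated data. Floors of 3 counts cover counting error only. Python 3.11.15 was used for summaries and plots (matplotlib 3.10.9, pandas 2.3.3).

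The 9 genes and all lists were chosen with earlier results of these data known. Named pathway genes are those called by edgeR in any comparison and, for receptors and the JAK, STAT and IRF list, the ends of the range; genes named for a smallest p or a library's level were chosen after their values were seen, as were the counts by scaling.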

Additional observations from a re-analysis of the deposited data

How the results depend on the processing

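The count of the 9 genes called was 0 under most alternatives. DESeq2 gave 1 (Oasl2) for sepsis in spleen and 1 for sepsis averaged over tissues, and limma-voom gave 1 (Ifit2) for the tissue average. When each library was left out in turn, the count ranged from 0 to 1 for the tissue average, where the 1 was Ifit2 without spleen saline replicate 2, and from 0 to 0 in the other 6 comparisons. Over all genes, the counts of 253, 361, 0, 32, 0, 962 and 14 calls (tissue after saline, tissue after sepsis, sepsis in BM, sepsis in spleen, interaction, tissue average and sepsis average) were 529, 595, 81, 187, 130 and 171 without the expression filter, in the same order with the tissue average left out, and 1053, 1248, 220, 931, 470, 2178 and 666 in DESeq2. With limma-voom, 724 genes were called for tissue after sepsis, 0 for sepsis in spleen, 1517 for the tissue average and 1 for the sepsis average. Library size alone gave 1515 for the tissue average, and the 6 spleen libraries alone gave 0 for sepsis in spleen. Leaving out 1 library gave 197 to 467, 307 to 512, 0 to 12, 48 to 138, 3 to 48, 810 to 1151 and 31 to 83 calls in the 7 comparisons.

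The sign of 4 genes depended on single libraries or the tool, and the cause was not tested. The ranges that follow are those of the log2 fold change over the main fit and all 18 alternatives. In the tissue average, Ifit1 ranged from -4.88 to 2.20 (2.20 without spleen sepsis replicate 3). Isg15 ranged from -4.98 to 0.14 there (0.14 without spleen saline replicate 3). In the sepsis average, Ifit1 ranged from -4.39 (without spleen sepsis replicate 3) to 2.07. It was also -0.59 without BM sepsis replicate 1 and -2.33 in limma-voom. Ifit2 ranged from -3.29 to 3.28 (3.28 without spleen saline replicate 2), with 0.28 in limma-voom. Ifit3 ranged from -4.45 to 0.96 (0.96 without BM saline replicate 1), and Isg15 from -0.11 (without spleen sepsis replicate 2) to 3.82. Irf7, Rsad2, Usp18, Oasl2 and Bst2 kept their sign in both averages under all 18 alternatives.

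Same-numbered libraries did not deviate together (r of -0.0566 to 0.0447 over 18 pairs), so the numbers were not taken to pair the samples. With the replicate block, 0 of the 9 genes were called in each of the 7 comparisons, and 288, 401, 0, 33, 0, 955 and 20 genes were called over the whole table.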
